A study of Homo sapiens with 5 samples.

Results

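Host mouse myeloid cells with messenger RNA of MHC class II were examined in grafts of human brain organoids. They were selected from the measured values, as barcodes with more than 500 mouse UMIs and a human share under 20%, with 5 or more UMIs of H2-Aa, H2-Ab1 and H2-Eb1 together, at least 1 UMI of C1qa, C1qb or Csf1r, and fewer than 3 of the 5 macrophage genes Mrc1, Pf4, Cd163, F13a1 and Ms4a7. A UMI is a random tag that lets all copies of 1 RNA molecule be counted once. The rule found 340 cells, hereafter MHC-II cells, among 4961 host cells and 40966 barcodes. Organoids had been made from H9, a line of human embryonic stem cells, in a derivative that expresses ChR2 and EYFP, and were transplanted at day 42 of culture, on both sides, into the prefrontal cortex (PFC) or the hippocampus (HIP) of SCID-Beige mice that were several weeks old. The 4 libraries were HIP_2MPT and PFC_2MPT, from grafts taken 2 months post transplantation (MPT), and HIP_4MPT and PFC_4MPT, taken at 4 months, and each held dissected EYFP tissue with the host cells inside it. All hosts thus carried a graft and the same immunodeficiency, and no brain without a graft was in these libraries. The number of animals in each library is not given in the labels, and HIP and PFC served as the 2 replicates of a stage. P-values thus refer to spread between these libraries. In the comparisons with myeloid cells low in class II, that spread was a trend shared by all genes and not each gene's own.

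MHC class II molecules display peptides from engulfed material to CD4 T cells. Cd74 encodes the invariant chain, which guides them to endosomes, H2-DM exchanges peptides there, and Ciita is the master activator of these genes. In the brain, resting microglia hold little class II, which rises in inflammation, above all under interferon gamma, while border macrophages, dendritic cells and activated monocyte-derived cells can carry it at all times. SCID-Beige mice lack functional T and B cells and have poor natural killer activity.

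The 340 cells were distributed very unevenly. HIP_2MPT held 300, PFC_2MPT 16, HIP_4MPT 13 and PFC_4MPT 11, so that 88.2% came from 1 library and only 40 from the other libraries together. Among host myeloid cells (at least 1 UMI of C1qa, C1qb or Csf1r), MHC-II cells made up 44.6% in HIP_2MPT (300 of 673, exact 95% Clopper-Pearson interval 40.8 to 48.4) and 2.96% in PFC_2MPT (16 of 540, 1.70 to 4.77), and 0.937% in HIP_4MPT (13 of 1387, 0.500 to 1.60) and 1.74% in PFC_4MPT (11 of 632, 0.872 to 3.09). The interval of HIP_2MPT lay far above all others, the interval of PFC_4MPT overlapped those of PFC_2MPT and HIP_4MPT, and the intervals of the latter 2 did not overlap. The order of these 3 libraries depended on depth and threshold. With cells thinned to 1000 UMIs, PFC_4MPT (2.53%) exceeded PFC_2MPT (1.47%), and its interval lay above that of HIP_4MPT (0.440%). The intervals of PFC_2MPT and HIP_4MPT overlapped in that setting, and also with a class II sum of 10 or more. All these shares describe what the rule selected, and with 2 libraries a stage no test was made. Intervals cover counting error only. A further 44 myeloid cells had 3 or more of the macrophage genes (border gate), and 2848 had 0 to 4 class II UMIs and fewer than 3 macrophage genes (MHC-II-low cells). The last class also held barcodes with genes of other cell types. In HIP_4MPT 447 of 1353 MHC-II-low cells (33.0%) had 2 or more choroid plexus genes, against 1 cell or none in each other library, and 2 or more oligodendrocyte genes were found in 12.5% of MHC-II-low cells in HIP_2MPT and 5.16% in PFC_2MPT, and 13.9% in HIP_4MPT and 14.1% in PFC_4MPT. Shares of myeloid cells are therefore shares of all barcodes that passed the gate.

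**Figure D1:**
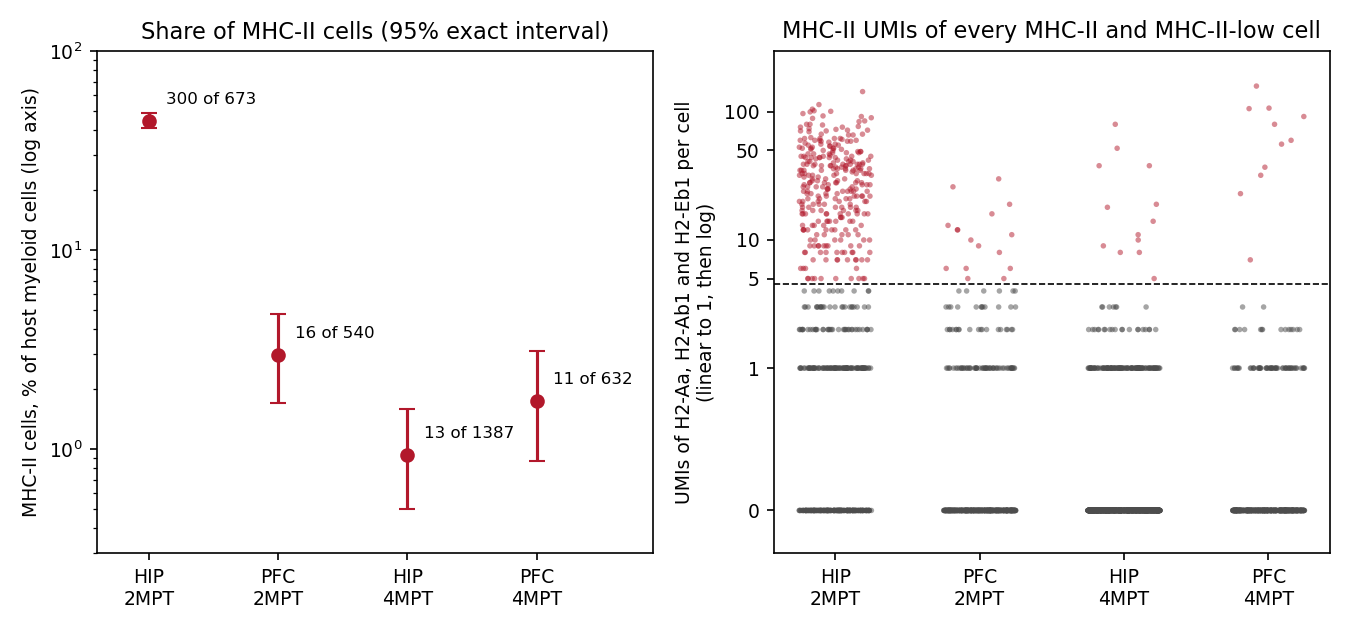
Left, MHC-II cells as a percentage of host myeloid cells in each library on a log axis, with exact 95% intervals and the cell counts. Right, summed UMIs of H2-Aa, H2-Ab1 and H2-Eb1 in each MHC-II cell (red) and MHC-II-low cell (grey), with a dashed line at the threshold of 5. HIP_2MPT holds 300 of the 340 red points.

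Depth and free RNA differed between libraries. The median MHC-II cell had 1743.5 mouse UMIs in HIP_2MPT and 3512 in PFC_2MPT, and 5834 in HIP_4MPT and 3005 in PFC_4MPT, against 1159.5, 2660, 2927 and 2617.5 in MHC-II-low cells. Class II RNA outside its own cells was measurable in HIP_2MPT, where 31.2% of human cells had a mouse class II UMI at a median of 52 mouse UMIs, against 0.294% in PFC_2MPT, 0.721% in HIP_4MPT and 0.634% in PFC_4MPT at medians of 20, 72 and 127. Among host cells gated as oligodendrocytes, which should lack class II, the share was 25.8% in HIP_2MPT (16 of 62), 0 of 55 in PFC_2MPT, which allows up to 5.45%, 1.28% in HIP_4MPT and 2.03% in PFC_4MPT, and 1 of all these cells, in HIP_2MPT, reached 5 UMIs. Of the human cells, 21 of 9049 in HIP_2MPT and 2 of 9932 in PFC_4MPT also had 5 or more, and none in PFC_2MPT or HIP_4MPT. The mean was 33.1 class II UMIs per MHC-II cell in HIP_2MPT and 0.516 per oligodendrocyte-gated cell there. Among MHC-II-low cells, 46.7% had a class II UMI in HIP_2MPT, at a mean of 0.777 per cell, against 18.2% in PFC_2MPT, 11.5% in HIP_4MPT and 12.1% in PFC_4MPT. These shares were above those of oligodendrocyte-gated cells in each library, and the part of free RNA in them was not tested. No barcode was an MHC-II cell in more than 1 library, although pairs of libraries shared 17 to 50 barcodes.

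The 3 class II genes of the rule are given as a description. The median sum per MHC-II cell was 28 UMIs in HIP_2MPT (5 to 144) and 10.5 in PFC_2MPT (5 to 30), and 14 in HIP_4MPT (5 to 80) and 60 in PFC_4MPT (7 to 159). As shares of mouse UMIs, the sums were 17708 CPM (UMIs per 1000000 mouse UMIs of the class) in HIP_2MPT and 24333 in PFC_4MPT, and 3938 in PFC_2MPT and 3902 in HIP_4MPT. Since the rule asks for 5 UMIs at any depth, a shallower cell needs a larger share to enter, and these levels are not comparable across libraries. H2-Aa, which encodes the alpha chain of I-A, had 7099 CPM in HIP_2MPT and 1258 in PFC_2MPT, and 1775 in HIP_4MPT and 10932 in PFC_4MPT. H2-Ab1, its beta chain, had 4827, 1157, 1070 and 5771 CPM in the same order, and H2-Eb1, the beta chain of I-E, 5782, 1522, 1057 and 7630 CPM. At least 1 UMI was found for H2-Aa in 98.8% of MHC-II cells, for H2-Ab1 in 96.2% and for H2-Eb1 in 98.2%, so that nearly every cell carried all 3 genes. At the threshold, 16 MHC-II-low cells had a sum of 4 and 13 MHC-II cells a sum of 5, with 9.19 and 11.3 UMIs of Cd74 per cell. Most of them were cells of HIP_2MPT, with 9.30 and 10.1 UMIs of Cd74, while PFC_2MPT had 9 in 6 cells and 20 in 2 cells. C1qa and C1qb, subunits of the complement starter C1q, had 4499 to 11983 CPM, and Csf1r, the receptor that keeps microglia and macrophages alive, 705 to 1218 CPM. Of the macrophage genes, Ms4a7 was seen in 11.5% of MHC-II cells, Mrc1 in 8.82%, Pf4 in 2.06%, F13a1 in 1.18% and Cd163 in 0.294%.

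Cd74, the marker outside the rule, was present in 100% of MHC-II cells and 17.9% of MHC-II-low cells. Its level was 22976 CPM in HIP_2MPT and 9966 in PFC_2MPT, and 8710.4 in HIP_4MPT and 28533 in PFC_4MPT, against 1672, 244.7, 66.6 and 79.0 CPM in MHC-II-low cells, with no overlap. By this marker the cells matched their label as class II cells.

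Genes of microglial identity were found in part of the cells. At least 1 of 9 core microglia genes (P2ry12, Tmem119, Siglech, Gpr34, Olfml3, Sparc, Sall1, Fcrls, P2ry13) was found in 65.0% of MHC-II cells (221 of 340) and 86.1% of MHC-II-low cells. This share was 63.7% in HIP_2MPT and 93.8% in PFC_2MPT, and 76.9% in HIP_4MPT and 45.5% in PFC_4MPT, against 71.7%, 94.5%, 85.6% and 88.9% in MHC-II-low cells. Genes of the dendritic list (Flt3, Zbtb46, Cd209a, Clec10a, Clec9a, Xcr1, Ccr7) were found in 29 MHC-II cells (8.53%) and in 1.51% of MHC-II-low cells, and genes of monocytes (Ly6c2, Ccr2, Plac8, Chil3, Ms4a4c) in 60 (17.6%) and 2.98%. Within HIP_2MPT, which held most MHC-II cells and few of the others, these genes were found in 27 of 300 and 9 of 368 cells (2.45%) for the dendritic list and in 17.3% and 6.52% of cells for the monocyte list. Of the dendritic list, Cd209a and Clec10a were also found in the border gate and do not separate dendritic cells from macrophages. Of the 340 cells, 191 had core microglia genes and neither of the others, 49 had genes of the dendritic or monocyte list alone, 30 had both kinds and 70 had none. The cells are therefore a class set by class II RNA, and a single cell type was not shown. These shares count cells with 1 UMI or more and were not matched for depth. The part of free RNA in them was not measured.

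Levels in MHC-II and MHC-II-low cells were compared on UMI sums per library with edgeR's quasi-likelihood test, with the library as a block. Of 7161 genes tested, the 11 rule genes left out, 193 were higher in MHC-II cells (2.7%) and 302 lower (4.22%), with a median log2 fold change of -0.16. The balance of directions depended on the processing. Mixed barcodes were those with 2 or more genes of the list of T and natural killer, B and plasma, oligodendrocyte, astrocyte, endothelial or neutrophil genes. Choroid plexus and red blood cell genes were not used to remove barcodes. Without mixed barcodes (2 libraries with enough cells), 61 genes were higher and 31 lower. In that fit 58 of the 143 higher and 25 of the 100 lower calls that could still be tested were kept. DESeq2 gave 144 higher and 106 lower. The difference had the same direction in all 4 libraries for 109 of the higher and 272 of the lower genes. Directions by library, here and below, were read from CPM without further normalization. In HIP_4MPT choroid plexus genes took 242730 CPM of MHC-II-low cells against 3046 of MHC-II cells. This lowers the CPM of all other genes in MHC-II-low cells there, so that small differences in that library are uncertain. Beside Cd74, the largest increases at 50 CPM or more were in Ccl7, Gm20513, Wfdc17, Cybb, H2-DMb1, Ccl8, Cst7, C3 and Lyz2. Without HIP_2MPT, 75 genes were higher, all of them among the 193, and 99 were lower.

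Wfdc17, a small secreted protein of activated macrophages, had 162.3 CPM in MHC-II cells of HIP_2MPT and 223.3 in PFC_2MPT, and 1913 in HIP_4MPT and 480.9 in PFC_4MPT, against 27.3, 5.93, 32.5 and 15.1 CPM in MHC-II-low cells. It was higher in every library (log2 fold change 4.80 ± 0.37 (SE), edgeR adjusted p = 3.5e-35). Cybb, the catalytic subunit of the phagocyte NADPH oxidase, had 174.8, 40.6, 327.3 and 705.3 CPM against 20.5, 4.45, 8.56 and 18.1 CPM, again without overlap (4.53 ± 0.39, adjusted p = 1.1e-28). Its 40.6 CPM in PFC_2MPT is less than a count of 0 allows there. Gm20513, a gene model without a functional name, had 363.8, 121.8, 62.9 and 128.2 CPM against 15.9, 5.19, 0.685 and 3.01 CPM (5.02 ± 0.50, adjusted p = 3.9e-21). All 3 were called also without HIP_2MPT.

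Of the genes for class II presentation other than those of the rule, Cd74 among them, 10 were tested and 5 were higher, none lower, with a median log2 fold change of 0.91 against -0.16 over all genes. Without HIP_2MPT 2 of 9 were higher, Cd74 and H2-DMb1, with a median of 0.21 against -0.40 over all genes. H2-DMb1, a chain of the peptide exchanger H2-DM, had 839.9 CPM in HIP_2MPT and 243.6 in PFC_2MPT, and 75.5 in HIP_4MPT and 1218 in PFC_4MPT, against 68.4, 25.2, 6.51 and 15.1 CPM (4.24 ± 0.36, adjusted p = 4.3e-29). H2-DMa, the other chain, had 665.2, 284.2, 151.0 and 448.8 CPM against 150.4, 123.9, 72.1 and 109.1 CPM (1.65 ± 0.32, adjusted p = 1.0e-05), and was not called without HIP_2MPT (adjusted p = 0.068). H2-DMb2 was also higher, by 2.73 ± 0.78 (adjusted p = 0.011), but rested on 38 UMIs in HIP_2MPT, 1 in PFC_4MPT and 0 in the others, and it shares much sequence with H2-DMb1. Ifi30, a thiol reductase of endosomes, was higher by 0.98 ± 0.30 (adjusted p = 0.020). Ctss, Lgmn, H2-Oa, Rfxap and March1 did not pass, with log2 fold changes from -0.65 to 0.85. Ciita was too low to be tested and had 29 UMIs in HIP_2MPT (51.7 CPM, against 2.28 in MHC-II-low cells) and 0 UMIs in the 40 MHC-II cells of the other libraries. A count of 0 allows up to 60.9 CPM in PFC_2MPT and 96.2 in PFC_4MPT, against 37.8 in HIP_4MPT, so that the level of HIP_2MPT would not have been detectable in either PFC library.

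Of 21 genes for class I presentation tested, 5 were higher and none lower, with a median of 0.93. Without HIP_2MPT 3 of 19 were higher, with a median of 0.71. H2-K1, a classical class I heavy chain, had 1892, 1685, 1108 and 1026 CPM in the order HIP_2MPT, PFC_2MPT, HIP_4MPT and PFC_4MPT, against 1116, 546.6, 293.5 and 508.2 CPM (1.30 ± 0.27, adjusted p = 5.1e-05). H2-D1 had 6557, 6799, 5060 and 2116 CPM against 3750, 2283, 1088 and 1675 CPM (1.22 ± 0.25, adjusted p = 6.3e-05). H2-T23 (1.32 ± 0.31) and the proteasome subunit Psmb9 (1.11 ± 0.37) were higher too, each in 4 of 4 libraries, as was B2m, the light chain of class I. Of ligands for T cells, 8 were tested and 3 were higher. Cd86, which co-stimulates T cells, had 533.2, 588.6, 188.8 and 384.7 CPM against 221.0, 269.2, 127.8 and 168.8 CPM (1.04 ± 0.30, adjusted p = 0.011). Cd83 was higher by 1.07 ± 0.26 (adjusted p = 0.0012) in all libraries, and Cd274, which encodes the inhibitory ligand PD-L1, by 1.70 ± 0.45 (adjusted p = 0.0045) in 3 of 4. Cd86 and Cd274 were not called without HIP_2MPT (adjusted p = 0.41 and 0.25).

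**Figure D2:**
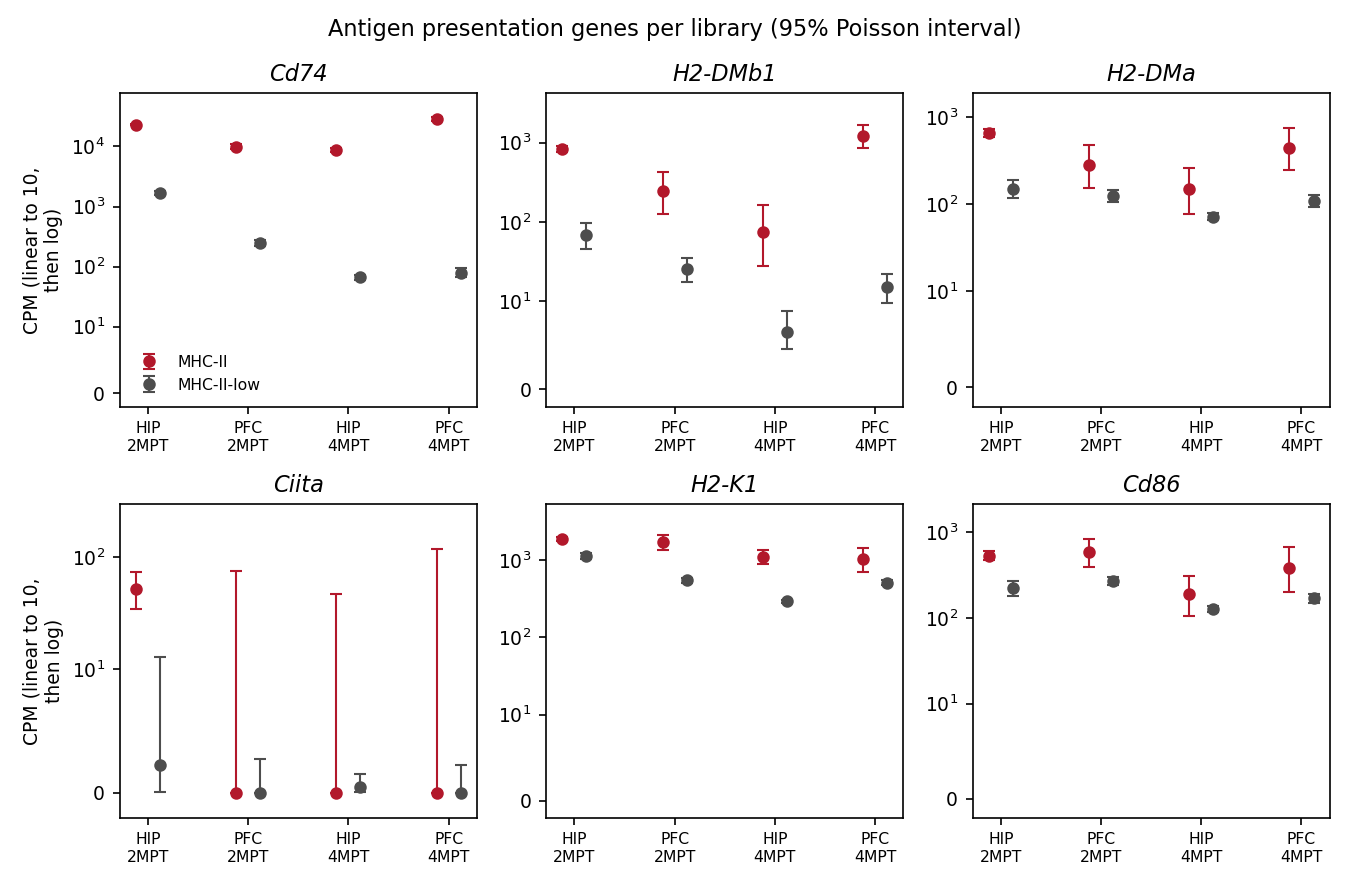
Level of 6 genes of antigen presentation (CPM, linear to 10 and then log) in each library, in MHC-II cells (red) and MHC-II-low cells (grey), with exact 95% Poisson intervals that cover counting error only. Cd74 and H2-DMb1 are separated in every library, whereas Ciita was detected in MHC-II cells of HIP_2MPT only, with intervals in both PFC libraries that reach above its level there.

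Of 16 genes of resting (homeostatic) microglia tested, 8 were lower, 8 were not called and none was higher, with a median of -1.03. Without HIP_2MPT 6 of 16 were lower. P2ry12, the ADP receptor that guides microglial processes, had 132.0 CPM in HIP_2MPT and 527.7 in PFC_2MPT, and 88.1 in HIP_4MPT and 192.4 in PFC_4MPT, against 681.3, 1091, 463.6 and 1025 CPM (-2.003 ± 0.308, adjusted p = 9.2e-09). Sparc (-1.67 ± 0.28), Gpr34 (-1.56 ± 0.31) and Selplg (-1.31 ± 0.28) were lower in 4 of 4 libraries, and all 4 genes were called also without HIP_2MPT. Sall1 (-0.63, adjusted p = 0.60) did not pass.

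Genes of disease-associated microglia, a state described around plaques and damaged myelin, were higher for 14 of 24 tested and lower for none, with a median of 1.51. The count was 10 of 24 without HIP_2MPT. Lyz2, a lysozyme of macrophages and monocytes, had 4490.4 CPM in HIP_2MPT and 4546 in PFC_2MPT, and 19271 in HIP_4MPT and 7630.2 in PFC_4MPT, against 849.9, 500.6, 533.6 and 544.3 CPM (3.60 ± 0.27, adjusted p = 1.2e-36). Cst7, an inhibitor of cathepsins, had 189.0, 60.9, 1410 and 0 CPM against 20.5, 7.42, 14.2 and 27.1 CPM (4.17 ± 0.43, adjusted p = 5.8e-19). It was thus high in HIP_2MPT and HIP_4MPT, while its 60.9 CPM in PFC_2MPT is no more than a count of 0 allows there. None of its UMIs were in PFC_4MPT, where 0 allows up to 96.2 CPM. Itgax, the integrin CD11c, was higher by 3.11 ± 0.44, again with PFC_4MPT as the exception. Apoe, the lipid carrier and the most abundant gene of the list, was chosen after its values were seen and had 21596, 33530.2, 39436 and 54341 CPM against 10472, 9402, 7382 and 8457 CPM (1.97 ± 0.23, adjusted p = 1.2e-14). Spp1, osteopontin, chosen likewise, had 615.2, 527.7, 11341 and 32.1 CPM, so that HIP_4MPT alone was high. Trem2, Cd9, Ctsd and Ctsl, of the same list, did not pass. Of 16 genes for lipid handling, 6 were higher and none lower, among them Apoc2 (3.503 ± 0.494), the scavenger receptor Msr1 (3.34 ± 0.58) and Apoc1 (1.36 ± 0.40), and without HIP_2MPT the 2 called were Apoc2 and Msr1.

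**Figure D3:**
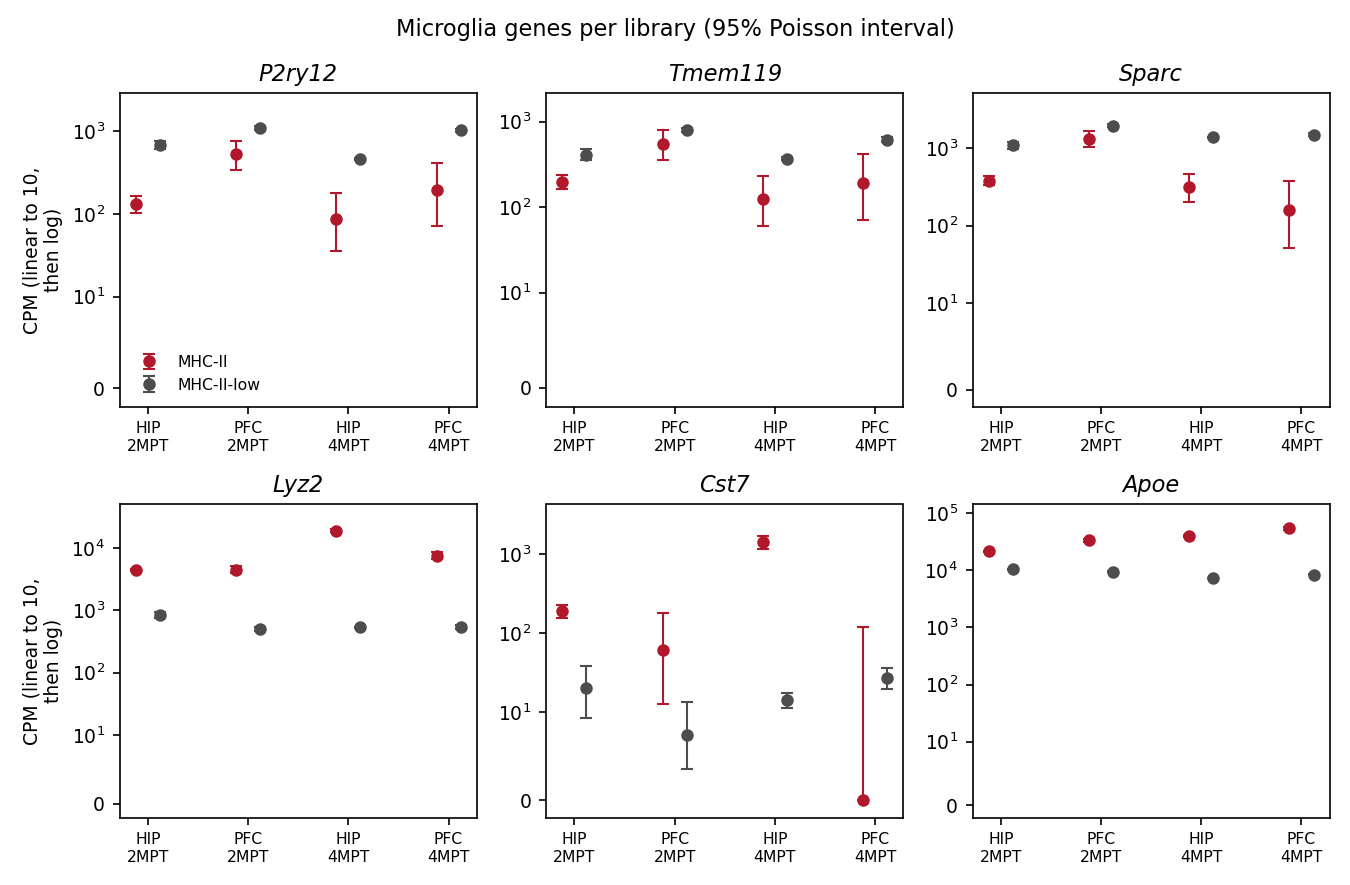
Level of 6 microglia and macrophage genes (CPM, linear to 10 and then log) by library in MHC-II cells (red) and MHC-II-low cells (grey), with exact 95% Poisson intervals. P2ry12 and Tmem119 lie lower and Lyz2 and Apoe higher in MHC-II cells of all 4 libraries, and Cst7 is at 0 in PFC_4MPT.

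The secreted signals Ccl7 and Ccl8 were among the genes of largest increase. Of 18 chemokines and cytokines tested, 10 were higher and none lower (median 1.31), and 5 of 16 were called without HIP_2MPT (median 0.61). Cxcl2, which attracts neutrophils, had 1106 CPM in HIP_2MPT and 345.0 in PFC_2MPT, and 767.8 in HIP_4MPT and 7342 in PFC_4MPT, against 127.6, 122.4, 51.2 and 422.0 CPM (3.25 ± 0.30, adjusted p = 7.2e-25). Il1rn, the natural antagonist of the interleukin 1 receptor, had 374.5, 81.2, 75.5 and 32.1 CPM against 45.6, 8.90, 4.62 and 12.7 CPM (3.14 ± 0.45, adjusted p = 2.9e-10). Its 32.1 CPM in PFC_4MPT is less than a count of 0 allows there. Ccl7, which attracts monocytes, had 495.8 CPM in HIP_2MPT and 224.4 in PFC_4MPT and 0 UMIs in the others (5.79 ± 0.61, adjusted p = 7.7e-19). Ccl8, a related chemokine, had 304 UMIs in MHC-II cells of HIP_2MPT (542.1 CPM, against 22.8 in MHC-II-low cells) and 0 in the other 3 libraries, so that its call rests on 1 library. Of 5 complement genes tested, 3 were higher, and none of the 3 that could be tested without HIP_2MPT was called. The most abundant gene of this list, C1qc, did not peak in that library. Its level in MHC-II cells was 3090 CPM there, against 3998 to 4552 CPM elsewhere. C3, the central component, had 222 UMIs in HIP_2MPT (395.9 CPM, against 29.6), 2 in HIP_4MPT and 0 elsewhere (3.96 ± 0.59, adjusted p = 3.0e-09). Cfb, factor B of the alternative pathway, had 57 UMIs there, against 0 in MHC-II-low cells, 3 in HIP_4MPT and 0 elsewhere. C4b was higher by 1.49 ± 0.46 (adjusted p = 0.023), and without HIP_2MPT its log2 fold change was -0.55. Of 19 receptors for immune signals, 4 were higher (Il2rg, Tlr2, Fcgr4 and Fcgr2b) and none lower, and Tlr2 alone without HIP_2MPT. Tlr2, which senses bacterial lipoproteins, was higher in 4 of 4 libraries (1.95 ± 0.34, adjusted p = 5.7e-07), also without HIP_2MPT, and Fcgr4 (1.79 ± 0.48) had a log2 fold change of 0.27 without it.

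Of genes that respond to interferon gamma, Cxcl10 was higher in 3 libraries, and some others were found in MHC-II cells of HIP_2MPT alone. Of 12 tested, 3 were higher, Cxcl10 and Gbp5 among them, and none lower, with a median of 0.70. Without HIP_2MPT Cxcl10 alone was higher, among 11, with a median of 0.26. Cxcl10, a chemokine for T cells, had 765.0 CPM in HIP_2MPT and 548.0 in PFC_2MPT, and 0 in HIP_4MPT and 865.6 in PFC_4MPT, against 255.2, 99.4, 16.3 and 104.3 CPM (2.05 ± 0.32, adjusted p = 2.7e-08). It was thus higher in 3 libraries and not detected in 13 cells of HIP_4MPT, which allows up to 37.8 CPM. Gbp5 was higher by 1.74 ± 0.55 (adjusted p = 0.027) and lost its call without HIP_2MPT (adjusted p = 0.47). Cxcl9, Iigp1 and Gbp4, too low in most sums to be tested and chosen after their values were seen, had 365.6, 107.0 and 48.2 CPM in MHC-II cells of HIP_2MPT, against 4.56, 11.4 and 0 CPM in its MHC-II-low cells. They had 0 UMIs in the 40 MHC-II cells elsewhere, where the limit of a count of 0 was 37.8 to 96.2 CPM, so that a level as high as that of Gbp4 would not have been detectable in 2 of the 3 libraries. With 1 library of this kind, the difference between HIP_2MPT and the others was not tested. HIP_2MPT also held more cells with 2 or more genes of T and natural killer cells outside the myeloid gate, 57 against 3 in PFC_2MPT, 8 in HIP_4MPT and 4 in PFC_4MPT. In MHC-II cells of HIP_2MPT 12 of 18 genes of that list were detected, with 36 UMIs in all (64.2 CPM) and Gzma as the most abundant (32.1 CPM), and all 18 were at 0 in MHC-II cells of the other libraries, where a count of 0 allows up to 37.8 to 96.2 CPM. In MHC-II-low cells of HIP_2MPT all 18 were detected, at 724.6 CPM in all, and at 22.99, 8.73 and 8.44 CPM in PFC_2MPT, HIP_4MPT and PFC_4MPT. The part of these cells in the result was not tested.

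**Figure D4:**
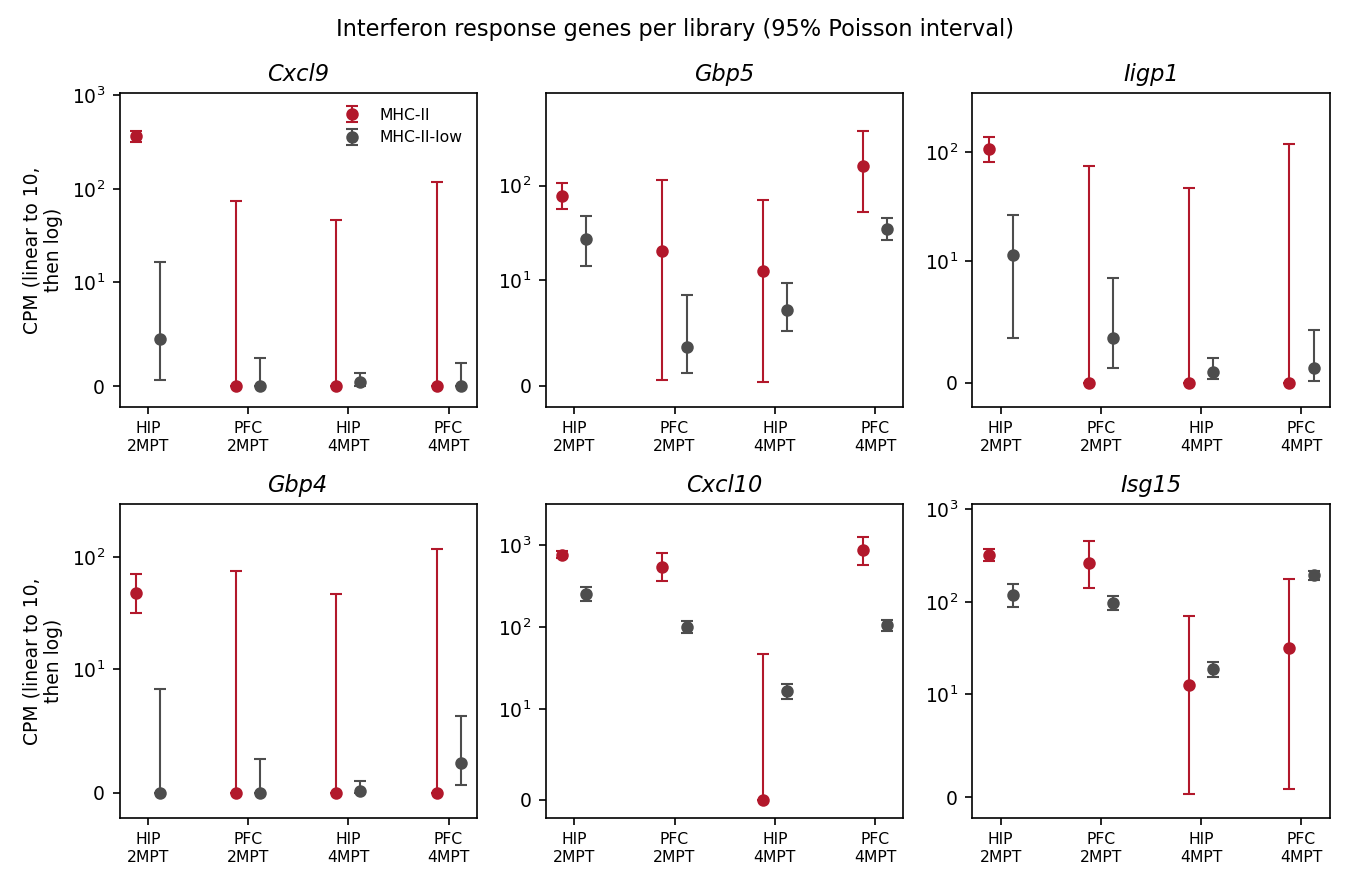
Level of 6 interferon response genes (CPM, linear to 10 and then log) by library in MHC-II cells (red) and MHC-II-low cells (grey), with exact 95% Poisson intervals. Cxcl9, Iigp1 and Gbp4 were found in MHC-II cells of HIP_2MPT alone, Cxcl10 in those of all libraries but HIP_4MPT, and the intervals of the small classes are wide.

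Of genes that respond to type I interferon, 11 were tested and 4 were higher, none lower (median 0.96). Ifi27l2a had 597.4, 81.2, 553.8 and 352.7 CPM in the order HIP_2MPT, PFC_2MPT, HIP_4MPT and PFC_4MPT, against 243.8, 22.99, 63.7 and 192.3 CPM (1.81 ± 0.33, adjusted p = 1.8e-06), and was the one gene of this list called without HIP_2MPT. Ifitm3 (1.26 ± 0.32), which blocks viral entry, and Bst2 (0.96 ± 0.31) were higher in all libraries, and Oas1a (2.04 ± 0.64) in 3.

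Lists of neighbouring myeloid types were called to different degrees. Of 8 genes of border-associated macrophages tested, 5 were higher (list median 2.27), among them Cd36 (3.43 ± 0.85), Clec12a (3.33 ± 0.90), Dab2 (2.92 ± 0.48) and Clec4n (2.68 ± 0.69), and Maf was lower (-1.03 ± 0.31, adjusted p = 0.020). Without HIP_2MPT, Dab2 alone was called, among 6, and the median was -0.18. Of 11 monocyte genes, 4 were higher, Ccr2 (3.03 ± 0.74), the receptor for Ccl2 and Ccl7, Fn1 (2.98 ± 0.49), Ms4a4c (2.496 ± 0.788) and Ms4a6c (2.23 ± 0.35), and 3 of 8 without HIP_2MPT. Ly6c2, which defines classical monocytes, did not pass (1.32, adjusted p = 0.31) and had 47 UMIs in HIP_2MPT, 1 in HIP_4MPT and 0 in both PFC libraries. Summed levels of the monocyte list in MHC-II cells were 1748 CPM in HIP_2MPT (top gene Nr4a1) and 771.3 in PFC_2MPT, and 881.1 in HIP_4MPT (top gene Fn1) and 1346.5 in PFC_4MPT, against 1046, 512.5, 435.1 and 420.2 CPM. Of 5 dendritic cell genes tested, Plbd1 was higher (3.59 ± 0.82) and Fscn1 lower (-1.49 ± 0.39), and without HIP_2MPT Plbd1 could not be tested and Fscn1 was not called (adjusted p = 0.12), and Flt3 had 7 UMIs in HIP_2MPT and 0 in the others. In the plasmacytoid list Bst2 alone was called, and none of 3 neutrophil genes passed (Csf3r -0.27, S100a9 -0.26).

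**Figure D5:**
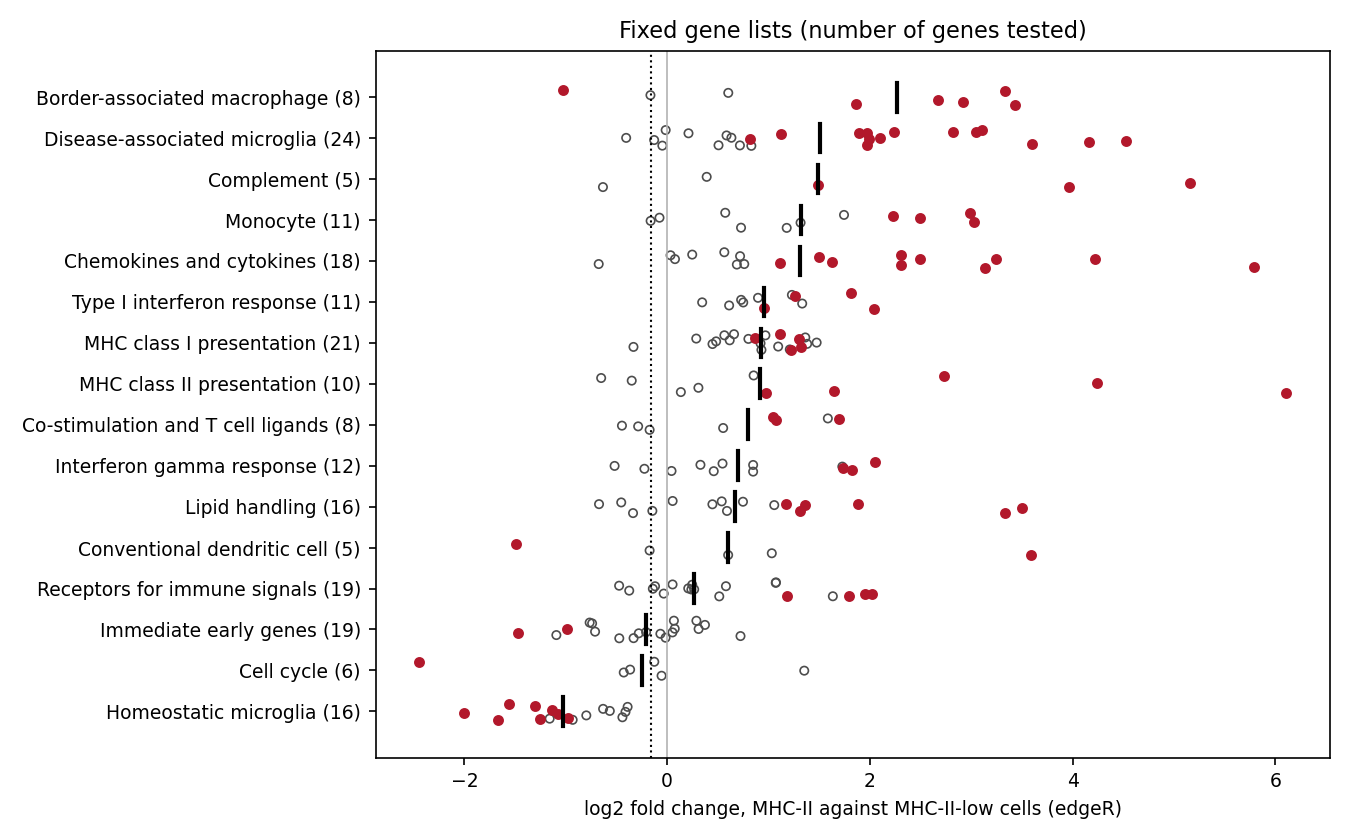
log2 fold change of MHC-II over MHC-II-low cells (edgeR) for each tested gene of lists with 5 or more tested genes, lists of other brain cell types left out. Filled points passed an adjusted p of 0.05, black bars are list medians, and the dotted line is the median of all 7161 genes (-0.16). The homeostatic list lies to the left and the disease-associated list to the right.

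Markers of cells that are not myeloid were among the lower genes, with 26 of the 302 on the lists of oligodendrocyte, astrocyte, endothelial, choroid plexus, lymphocyte and red blood cell genes. A barcode entered the MHC-II-low class with 1 UMI of C1qa, C1qb or Csf1r. The 10 genes of largest decrease at 50 CPM or more were Ttr, Igfbp2, Fez1, Igkc, Enpp2, Apod, Cldn11, Ptgds, Fxyd1 and Ppp1r14a. Ttr, the transthyretin of choroid plexus, had 238520 CPM in MHC-II-low cells of HIP_4MPT against 3034 in its MHC-II cells, and 549.1 CPM in those of HIP_2MPT against 3.57. All 10 oligodendrocyte genes were lower, and their sum was 256.8, 40.6, 75.5 and 128.2 CPM in MHC-II cells against 3028, 860.3, 1928 and 2728 CPM. Lower were also 4 of 5 astrocyte genes (Slc7a10, Atp1b2, Slc1a2 and Aldoc), 3 of 6 endothelial (Cldn5, Ly6c1 and Bsg), both choroid plexus and 4 of 4 red blood cell genes tested (Hbb-bs, Hba-a1, Hba-a2 and Hbb-bt), and no neuronal gene was testable. Without HIP_2MPT none of the 5 astrocyte genes and 2 of 6 endothelial genes were called, and the red blood cell genes could not be tested. The direction of the red blood cell genes was not stable. Their log2 fold changes were 0.48 for Hbb-bs, 0.40 for Hba-a1 and 0.25 for Hba-a2 with a class II sum of 3 or more, and 1.62 for Hbb-bt with DESeq2. Bsg turned sign without mixed barcodes. In HIP_2MPT Igkc, an antibody light chain, had 4562 CPM in MHC-II-low cells against 62.4, and Gzma, a granzyme of killer cells, 248.4 against 32.1 CPM. Igkc made up most of the B and plasma cell list in these MHC-II-low cells (4717 CPM in all). Neither call was stable, since Igkc was 4.45 with a class II sum of 3 or more and Gzma turned sign with DESeq2. The part of cells of other types in the lower calls was not tested. Of 6 cell cycle genes, Stmn1 was lower (-2.45 ± 0.40). Of 19 immediate early genes, which dissociation induces, Klf4 (-1.47 ± 0.34) and Klf2 (-0.99 ± 0.27) were lower.

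The border gate had enough cells only at 4 months, with 21 in HIP_4MPT and 17 in PFC_4MPT against 13 and 11 MHC-II cells. Its cells also carried class II RNA, with 2469 and 2132 CPM of the 3 rule genes against 3902 and 24333 CPM. Of 865 genes tested, 25 were higher in MHC-II cells (2.89%) and 54 lower (6.24%), on 1 residual degree of freedom. Higher with the largest change were Cadm1, Bcl2a1a, Spp1, Bcl2a1d and Plxdc2. The call of Spp1 rests on HIP_4MPT, with 901 against 22 UMIs there and 1 against 1 UMI in PFC_4MPT. Bcl2a1d, a survival factor of the Bcl2 family, had 352.4 and 1443 CPM in HIP_4MPT and PFC_4MPT against 11.6 and 96.0 CPM (4.17 ± 0.61, adjusted p = 6.7e-05), though the near-identical Bcl2a1 copies can share reads. Cd209a, Pde7b, Ccl8, Clec10a and Lyve1 were lower by most, each with 0 UMIs in the MHC-II cells of both libraries, and Cd209a had 524.1 and 653.0 CPM in the border gate. Lyve1 and Cd209a, like Folr2 and Ccl24, which were lower too, are known markers of perivascular and meningeal macrophages. The gate itself asks for 3 or more macrophage genes and MHC-II cells for fewer. Lower levels of such markers thus describe the rule and are no separate evidence of identity. Genes with 0 UMIs in MHC-II cells passed the filter on low counts through the border gate alone. No gene was called with more than 1000 mouse UMIs per cell or without the library block, where 121 and 122 genes had p under 0.05, and DESeq2 called 18.

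No gene was called between stages or sites within the class. On simulated data of these designs, 32 of 100 genes changed 2-fold and 88 of 100 changed 4-fold were found between stages, with 2 false calls, and 33 and 79 between sites, with 6. The simulation gave all genes the same fixed spread between libraries (dispersion 0.05), which was not taken from these data. Whether the real spread was larger was not tested, so these counts do not measure the power in the real libraries. At 4MPT against 2MPT, 811 genes were tested and 0 passed (0.0%), with 45 at an unadjusted p under 0.05 and 0 by DESeq2. The smallest p was that of Isg15, a ubiquitin-like protein induced by type I interferon, with 321.0 CPM in HIP_2MPT and 263.9 in PFC_2MPT against 12.6 and 32.1 CPM in HIP_4MPT and PFC_4MPT (-3.97 ± 0.85, adjusted p = 0.54). The stages did not overlap in these values, which for 4MPT rest on 1 UMI in each library. Kazn (-3.80 ± 0.88) and A930015D03Rik had the next smallest p among the lower genes, and Wfdc17 (2.68 ± 0.68), Fkbp5 (2.84 ± 0.79) and Tmem176a (1.88 ± 0.54) among the higher. Tmem176a had 149.8 and 182.7 CPM at 2MPT and 516.1 and 705.3 CPM at 4MPT. In PFC against HIP, 0 of 811 passed (0.0%), with 22 at an unadjusted p under 0.05 and 1 by DESeq2. Tsc22d3 (2.83 ± 0.50), a target of glucocorticoids, Klf2 (2.19 ± 0.45) and Hspa1a (3.85 ± 0.93) had the smallest p among genes higher in PFC, and Eif2s2 (-2.48 ± 0.72), Tspo (-2.26 ± 0.74) and Cst7 (-3.71 ± 1.25) among those lower, all with an adjusted p of 0.99. Tsc22d3 had 527.7 and 705.3 CPM in the PFC libraries and 67.8 and 113.3 in the HIP libraries.

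The class by stage term, which asks whether a change between stages differs between MHC-II and MHC-II-low cells, passed for 3 of 7161 genes (0.0419%), Cd74 (3.04 ± 0.49), Fxyd5 (3.11 ± 0.68) and Ly6e (-4.09 ± 0.82). For Cd74 the stages differed by 0.17 within MHC-II cells (adjusted p = 0.99), while MHC-II-low cells, which the rule limits to 4 class II UMIs, had 1672 and 244.7 CPM at 2MPT and 66.6 and 79.0 at 4MPT. Fxyd5, a regulator of the sodium pump, had 299.6 and 40.6 CPM in MHC-II cells at 2MPT and 566.4 and 609.1 at 4MPT, against 157.2, 7.42, 33.9 and 17.5 CPM in MHC-II-low cells. Ly6e, an interferon-induced surface protein, had 451.2, 40.6, 75.5 and 0 CPM against 202.8, 80.1, 603.8 and 156.1 CPM. For MHC-II cells, the 40.6 CPM of both genes in PFC_2MPT and the 0 of Ly6e in PFC_4MPT lie within what a count of 0 allows there. No gene passed with DESeq2 or without HIP_2MPT. The human share of UMIs, which counts RNA of grafted cells on host barcodes, was 8.66%, 3.18%, 1.91% and 8.93% in MHC-II cells and 11.8%, 2.31%, 3.13% and 9.38% in MHC-II-low cells. The mean was 5.67% against 6.67%, lower in 3 of 4 libraries (exact two-sided sign-flip permutation test, p = 0.375), and with 4 libraries this test cannot reach 0.05.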

How the data were processed

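Grafts from 4 libraries were sequenced with 10x Genomics 3′ chemistry. The authors deposited UMI counts per gene and barcode, not normalized, from Cell Ranger with a human-mouse reference. The file headers name version 5.0.0, the labels 3.1. Mouse genes carry the prefix mm10 in the files, while the methods name GRCm39, so no positions are given. The pre-graft library (D0) has no host cells and was not used. Members and gene lists were chosen with earlier results of these data known.

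The 4 libraries held 10673 (HIP_2MPT), 7010 (PFC_2MPT), 9869 (HIP_4MPT) and 13414 (PFC_4MPT) barcodes with 2251155, 2138259, 11256986 and 5990938 mouse UMIs. Doublets were not called, and mixed barcodes, as defined above, were removed in an alternative. UMIs were summed per library and class (10 cells or more) and tested with edgeR 4.0.16 in R 4.3.3 (filterByExpr, TMM, glmQLFit, glmQLFTest, Benjamini-Hochberg, threshold 0.05), with the library as a block where classes were compared and the stage as a covariate between sites. In the comparison with MHC-II-low cells, 3 residual degrees of freedom were left and edgeR set 1 shared trend for the spread of all genes, so that p-values may be too small. The class by stage term used such a trend too. DESeq2 1.42.0 was an alternative. CPM are UMIs of a gene per 1000000 mouse UMIs of the class. On simulated data for that comparison (7169 genes, 100 changed 2-fold and 100 changed 4-fold), 6 and 54 were found, with 1 false call. All simulated data used a fixed dispersion of 0.05 for every gene.

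Genes named are the rule genes and Cd74; per list up to 4 calls each way, by size of change, or else the 2 of highest CPM; the 10 strongest calls each way (5 in other tests) at 50 CPM or more; and where no gene was called, 3 per direction with the smallest p. Others are said to be chosen after their values were seen, or are given as list members. Of 407 list genes, 401 are in the files. Some genes that this rule would name are not reported here.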

Additional observations from a re-analysis of the deposited data

Results flagged for a closer look

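The class by stage term passed the test for 3 genes, which asks whether the change from 2MPT to 4MPT differed between MHC-II and MHC-II-low cells. The term was 3.04 on the log2 scale for Cd74, 3.11 for Fxyd5 and -4.09 for Ly6e (edgeR quasi-likelihood test, adjusted p = 3.3e-06, 0.011 and 0.0022). For Cd74 the levels that differed between stages were those of MHC-II-low cells, with 1672 and 244.7 CPM at 2MPT and 66.6 and 79.0 at 4MPT, against 22976 and 9966, and 8710.4 and 28533 CPM in MHC-II cells. None of the 3 was called by DESeq2 or without HIP_2MPT. The simulated data for this term gave 2 of 100 genes changed 4-fold. Class II RNA was also found in host cells of HIP_2MPT that lacked C1qa, C1qb and Csf1r and were in no comparison, where 55 cells had 5 or more UMIs of the 3 genes, against 0 in PFC_2MPT, 3 in HIP_4MPT and 1 in PFC_4MPT.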

How the results depend on the processing

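Class II cells were few outside HIP_2MPT, so that comparisons across libraries rest on 16, 13 and 11 cells there, and stage and site could not be told apart from differences between single libraries. In the comparison with MHC-II-low cells 495 genes were called, against 243 with a class II sum of 10 or more, 188 with a human share under 10%, 78 with cells thinned to 1000 UMIs, 92 without mixed barcodes, 250 with DESeq2 and 171 without the library block. Leaving out 1 library gave 174 (HIP_2MPT) to 470 calls, with 239 without PFC_4MPT. Fewer genes or libraries entered several of these fits, and the cause was otherwise not tested. Of 81 called genes named, 22 kept the call in every alternative, and in 1064 alternatives 218 calls were lost. The sign turned for Igkc (4.45 with a sum of 3 or more, 0.49 thinned, 1.13 with DESeq2), C4b without 1 library (-0.55 without HIP_2MPT, to 2.03 without HIP_4MPT), Gzma (4.40) and Hbb-bt (1.62) with DESeq2, Bsg without mixed barcodes (0.049), and Hbb-bs, Hba-a1 and Hba-a2 with a sum of 3 or more (0.48, 0.40 and 0.25), and the cause was not tested. Against the border gate 79 genes were called, and 0 with over 1000 UMIs, 0 without the library block and 18 with DESeq2. Between stages 0 were called, and 19 with a human share under 10%, 17 without a filter on low counts and 0 to 29 without 1 library (24 without PFC_2MPT, 8 without HIP_4MPT, 29 without PFC_4MPT), where 1 lone sample is assumed to vary like the others. Between sites 0 were called, and 2 with a sum of 3 or more, 1 with DESeq2 and 11 without a filter. For the class by stage term 3 were called, and 9 with a sum of 3 or more, 17 with a human share under 10%, 5 with fewer than 2 macrophage genes, 0 with DESeq2 and 0 (HIP_2MPT) to 9 without 1 library. The share of MHC-II cells in HIP_2MPT was 38.3% with a sum of 10 or more, 49.5% with 3 or more, 63.5% with a human share under 10%, 51.9% with over 1000 UMIs and 48.8% without mixed barcodes. In PFC_2MPT it was 1.67% with 10 or more, 6.30% with 3 or more and 1.47% thinned. In HIP_4MPT it was 1.44% with 3 or more and 0.440% thinned, and in PFC_4MPT 2.53% thinned. With the graft site as a block, which pairs the stages by site, 0 genes were called between stages.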
